A study of Mus musculus with 6 samples.

Results

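The untreated chromatin landscape of mouse intestinal organoids was read from 2 vehicle libraries, Vehicle 1 and Vehicle 2, out of 6 ATAC-seq libraries in the series. All peaks on chromosomes 1 to 19 were taken, 88965 of 90823 consensus regions, with no choice by their signal. The organoids had been grown from isolated crypts in Matrigel and kept for 3 days with vehicle, and epithelial cells were then sorted for Omni-ATAC, a form of the assay in which a transposase cuts and tags accessible DNA. The medium held EGF at 40 ng/ml, Noggin at 50 ng/ml, R-spondin at 62.5 ng/ml, N-acetyl-L-cysteine at 1 uM, the GSK3 inhibitor CHIR-99021 at 5 uM, the ROCK inhibitor Y-27632 at 20 ng/ml, and B27 and N2 supplements at 1X each. R-spondin and CHIR-99021 both activate Wnt signalling and Noggin blocks BMP signalling, so the values describe cells in that medium and not crypts in an animal. The other libraries of the series, which received arachidonic acid or a prostaglandin E2 compound, are not described, and entered only the scaling factors tried as alternatives. Neither the strain of the mice nor the gut segment is given in the sources used here, and the labels do not say whether the 2 libraries came from separate cultures, so the spread between them may be technical.

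Intestinal organoids are built from crypt stem cells, which are marked by Lgr5, Olfm4 and Ascl2 and kept by Wnt signals. Their daughters become absorptive enterocytes, or secretory cells after Atoh1 is switched on: goblet, Paneth and enteroendocrine cells. Tuft cells also descend from crypt stem cells. Cdx2, Hnf4a and Gata factors hold the intestinal identity of all of these cells, and accessible promoters and enhancers mark the genes that such factors can reach.

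Promoters of 8 genes with contrasting chromatin are shown first, because the results return to them: keratin 8 (Krt8), the brush border protein villin (Vil1), the homeobox factor Cdx2, the adhesion protein Epcam, the stem cell product Olfm4, the enteroendocrine granule protein chromogranin A (Chga), the endocrine factor Neurog3 and the leukocyte receptor Ptprc. Each line runs 5′ to 3′ on the gene's strand, from 250 bases before to 50 bases after the RefSeq start (build GRCm38.p6). Capitals mark matches on either strand to the searched letters of the GC box (GGGCGG), the CCAAT box (searched as these letters), the TATA box (searched as TATAAA) and the ETS (CCGGAAG), CRE (TGACGTCA), AP-1 (TGACTCA), CDX (CAATAAA), HNF4 (CAAAGTCCA) and GATA motifs (the last searched as AGATAAG), and to the NRF1 motif. A match is a run of letters and not a measured binding site.
Krt8: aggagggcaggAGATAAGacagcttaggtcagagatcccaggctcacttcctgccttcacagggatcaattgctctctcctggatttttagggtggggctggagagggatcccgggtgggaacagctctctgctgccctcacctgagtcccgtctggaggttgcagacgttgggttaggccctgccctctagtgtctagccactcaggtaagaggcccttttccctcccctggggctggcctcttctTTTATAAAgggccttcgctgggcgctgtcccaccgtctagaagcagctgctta
Vil1: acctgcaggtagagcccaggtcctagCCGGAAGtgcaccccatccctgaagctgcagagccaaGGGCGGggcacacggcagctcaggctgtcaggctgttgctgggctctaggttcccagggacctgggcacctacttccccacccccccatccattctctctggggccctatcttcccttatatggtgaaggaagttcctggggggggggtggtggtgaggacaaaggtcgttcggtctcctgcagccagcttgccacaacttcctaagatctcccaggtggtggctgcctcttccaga
Cdx2: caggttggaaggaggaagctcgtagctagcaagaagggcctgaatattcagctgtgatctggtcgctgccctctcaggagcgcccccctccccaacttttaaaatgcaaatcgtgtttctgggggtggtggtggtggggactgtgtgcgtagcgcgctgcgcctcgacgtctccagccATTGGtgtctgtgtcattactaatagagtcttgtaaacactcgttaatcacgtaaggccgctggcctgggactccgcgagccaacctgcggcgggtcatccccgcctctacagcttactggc
Epcam: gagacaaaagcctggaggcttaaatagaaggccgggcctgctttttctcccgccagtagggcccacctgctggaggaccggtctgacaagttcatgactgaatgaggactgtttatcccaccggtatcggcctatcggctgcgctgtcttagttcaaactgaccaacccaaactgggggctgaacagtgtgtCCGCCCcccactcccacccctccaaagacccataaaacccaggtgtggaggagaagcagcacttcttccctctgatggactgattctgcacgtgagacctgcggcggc
Olfm4: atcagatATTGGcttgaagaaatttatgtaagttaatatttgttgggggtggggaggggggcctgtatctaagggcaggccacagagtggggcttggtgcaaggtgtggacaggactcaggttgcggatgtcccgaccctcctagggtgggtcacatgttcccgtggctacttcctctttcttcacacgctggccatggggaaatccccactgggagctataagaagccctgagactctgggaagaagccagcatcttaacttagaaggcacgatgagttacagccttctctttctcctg
Chga: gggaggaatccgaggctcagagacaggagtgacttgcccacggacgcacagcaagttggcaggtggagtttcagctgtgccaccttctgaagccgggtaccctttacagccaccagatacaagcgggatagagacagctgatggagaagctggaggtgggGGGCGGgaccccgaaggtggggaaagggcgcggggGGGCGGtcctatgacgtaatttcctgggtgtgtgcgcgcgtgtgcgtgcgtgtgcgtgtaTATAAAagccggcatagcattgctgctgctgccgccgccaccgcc
Neurog3: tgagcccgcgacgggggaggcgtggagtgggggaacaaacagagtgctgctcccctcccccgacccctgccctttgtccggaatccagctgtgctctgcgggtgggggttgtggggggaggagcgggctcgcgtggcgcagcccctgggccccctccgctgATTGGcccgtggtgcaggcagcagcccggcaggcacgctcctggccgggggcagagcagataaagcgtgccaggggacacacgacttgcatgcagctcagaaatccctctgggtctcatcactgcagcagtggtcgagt
Ptprc: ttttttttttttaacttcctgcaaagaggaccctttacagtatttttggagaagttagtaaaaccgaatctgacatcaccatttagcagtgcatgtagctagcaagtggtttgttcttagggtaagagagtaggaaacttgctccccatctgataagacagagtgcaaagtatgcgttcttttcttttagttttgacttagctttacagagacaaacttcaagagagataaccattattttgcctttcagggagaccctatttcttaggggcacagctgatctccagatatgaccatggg

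The windows of Krt8, Vil1, Cdx2, Epcam, Olfm4 and Chga each overlapped a consensus peak, and those of Neurog3 and Ptprc overlapped none. The Krt8 window holds a GATA match and TATA letters, the Vil1 window an ETS match and a GC box, and the Cdx2 window a CCAAT box. The Neurog3 window has a GC content of 68.3% and 19 CpG, close to the 18 CpG of the Cdx2 window, so CpG number alone did not separate this window without a peak from one with a peak. The Ptprc window has a GC content of 39.3%, 2 CpG and none of the 10 searched motifs. Their positions are chr15:102004293-102004592 for Krt8 (minus strand), chr1:74409134-74409433 for Vil1 (plus), chr5:147307200-147307499 for Cdx2 (minus), chr17:87635729-87636028 for Epcam (plus), chr14:80000052-80000351 for Olfm4 (plus), chr12:102554691-102554990 for Chga (plus), chr10:62132840-62133139 for Neurog3 (plus) and chr1:138175077-138175376 for Ptprc (minus).

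Signal was spread over very many regions. Vehicle 1 held 12819432 counts in peaks and Vehicle 2 held 12900551, of which 98.5% in each library lay on chromosomes 1 to 19. Levels are given as counts per 1000000 counts in peaks of that library (CPM) and, to compare regions of different length, as CPM per kb of peak. The median peak had 60 counts in Vehicle 1 and 61 in Vehicle 2. Its mean level was 4.71 CPM, the middle 50% of peaks lay between 2.06 and 13.6 CPM, and the highest peak reached 257 CPM. Peaks were 175 to 3966 bp long with a median of 547 bp.

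The strongest 10999 peaks, 12.4% of all, held 50% of the counts. The strongest 10%, 8896 peaks, held 44.1%, and the strongest 1% held 8.43%. The 100 highest peaks took 1.42% of the autosomal counts of Vehicle 1 and 1.44% of those of Vehicle 2, so no small set of regions dominated either library.

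**Figure D1:**
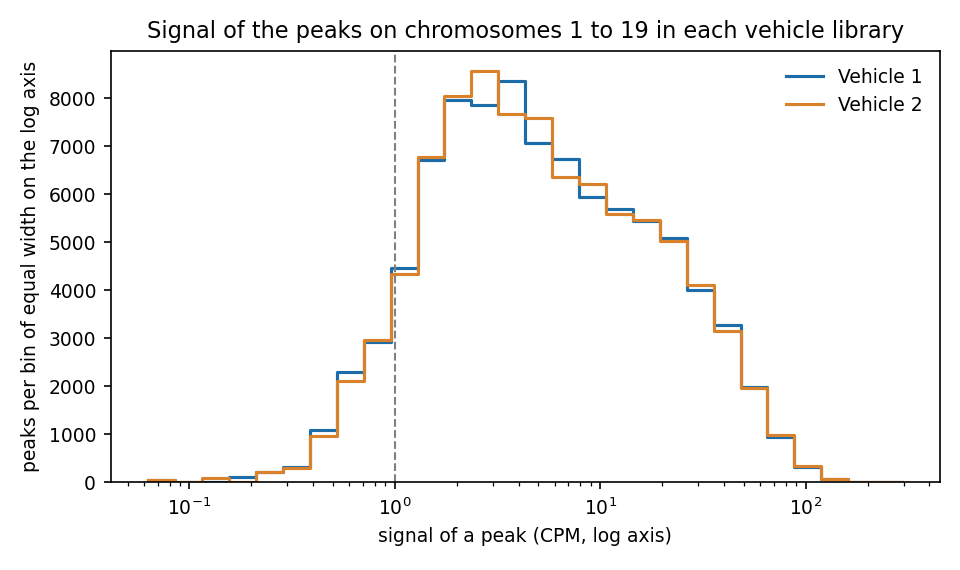
Number of peaks (y axis) by level in CPM (x axis, log scale) in Vehicle 1 and Vehicle 2; the dashed line marks 1 CPM, under which a peak counts as weak here, and peaks at 0 are not drawn. The 2 outlines nearly coincide, with most peaks between 1 and 50 CPM and a long upper tail.

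The 2 libraries gave nearly the same landscape. Across the 88965 peaks, which share the libraries' depths and the lengths of the peaks, Pearson's r between the libraries was 0.988 on log2(CPM + 1) and Spearman's rho was 0.982. The chi-square between the 2 sets of counts was 1.10 per degree of freedom, where 1 would be sampling noise alone, and it was 1.05 over the 83234 peaks with at least 10 counts in both. No peak of 10 CPM or more differed 2-fold between the libraries, and 2665 peaks (3.00%) did so at lower levels. The most uneven peaks of 1 CPM or more were all small: a peak inside Lrig1, nearest to an end of Slc25a26, had 26 and 4 counts, a peak inside Kif5c had 23 and 4, a peak near Tada3 had 4 and 23, and a peak near Baz1a had 22 and 4. These 4 were named for their difference, which is a description and no test.

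Gene starts were the most open class of region. The 15885 peaks within 1 kb of either end of a protein-coding gene were 17.9% of all peaks and held 34.7% of the counts of Vehicle 1 and 34.2% of those of Vehicle 2. Where the strand was known, 10602 peaks lay at a gene start, with a median of 19.2 CPM and 1051 bp. The 2075 peaks at a transcript end only had a median of 4.08 CPM and 514 bp. Starts were thus higher also per length, with a median of 17.0 CPM per kb against 7.75 CPM per kb at transcript ends.

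Distal regions were many and mostly lower. Peaks inside a gene but away from its ends numbered 38829 (43.6%), took 34.8% of the Vehicle 1 and 35.0% of the Vehicle 2 counts, and had a median of 3.89 CPM. Peaks outside genes numbered 24360 within 50 kb of a gene end, with a median of 4.09 CPM, and 9891 farther away, with a median of 3.62 CPM. Of all peaks, 56.1% lay inside a protein-coding gene, introns and exons together.

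The class of region changed along the range of levels. In the weakest 10% of the peaks the median was 0.817 CPM and 232 bp, 8.63% lay at a gene end and 3.84% at a known start. In the strongest 10% the median was 43.0 CPM and 1153 bp, 46.5% lay at a gene end and 37.4% at a known start. The share more than 50 kb from any gene end was 24.1% in the weakest 10% and 11.5% in the strongest 10%. Of all peaks, 79.8% lay within 50 kb of a gene end. Length and level are tied by construction of the counts, since a longer peak collects more: Spearman's rho across the peaks was 0.803 between length and CPM and 0.466 between length and CPM per kb.

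**Figure D2:**
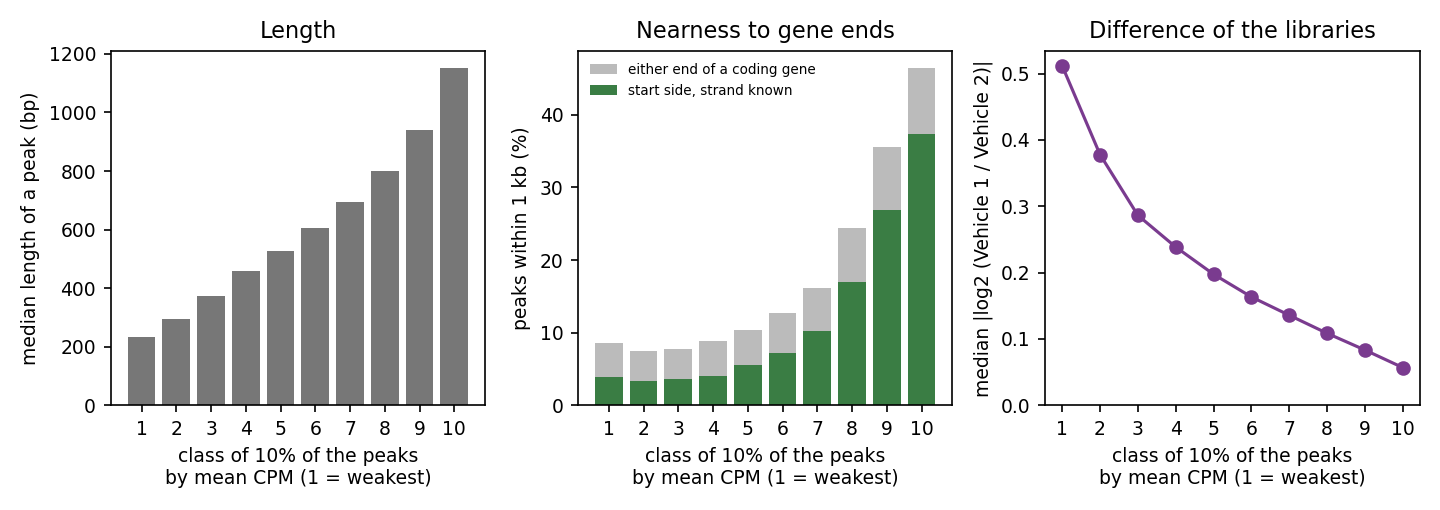
Peaks in 10 equal classes by mean CPM of the vehicle libraries (x axis, 1 is the weakest): median length in bp, percentage within 1 kb of a gene end or known start, and median absolute log2 ratio of the libraries (y axes). Length goes from 232 to 1153 bp, the gene end share from 8.63% to 46.5%, and the ratio from 0.51 to 0.06.

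Peak density differed between chromosomes. Chromosome 11 had the most peaks per Mb, 52.6, and carried 645 CPM per Mb in Vehicle 1 and 647 in Vehicle 2. Chromosome 14 had the fewest, 27.6 per Mb, and 288 CPM per Mb in each library. The median over the 19 autosomes was 37.1 peaks per Mb.

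The 12 highest peaks by CPM fell into distal and repeat-related regions as well as gene starts. The highest lay inside Sfi1, a gene for a centrosomal protein, at chr11:3142042-3144226, with 254 CPM in Vehicle 1 and 260 in Vehicle 2 (257 ± 4.46, SD, n = 2). A peak at an end of Sfi1 that also overlaps the pseudogene Pisd-ps1 had 188 and 197 CPM. The second was a 390 bp peak in Lars2, a mitochondrial leucyl-tRNA synthetase, at chr9:123461797-123462186, with 215 and 226 CPM. The third overlapped Rn18s-rs5, annotated as a pseudogene related to 18S ribosomal RNA, at chr17:39846708-39847402, with 208 and 225 CPM. How reads that match several places, or regions of known excess signal, were handled is not given in the sources used here, and whether that handling bears on these 4 peaks was not tested.

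The other 8 of the 12 highest peaks lay at or near other genes. A distal peak 46659 bp from an end of Zfp36l2, which encodes an RNA-decay factor, had 199 and 193 CPM and overlaps the lncRNA Gm19696. The start of Krt78, a type II keratin, had 188 and 193 CPM, and that of Sp1, a factor that binds GC boxes, had 184 and 191. Jun, a subunit of AP-1, had 179 and 180 CPM, and Mnt, a repressor that pairs with Max, had 175 and 176. Values at Gm36684 near Tcp10c, at the shared start of Srgap2 and Fam72a, and at that of Cdca3 and Usp5 were between 167 and 174 CPM. In each of these peaks the SD between libraries was under 5 CPM.

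Per kb the order changed. The Lars2 peak led with 565 ± 21.0 CPM per kb (SD, n = 2), followed by a 259 bp peak over 50 kb from any coding gene on chromosome 3 (nearest Pex2) with 357 ± 8.81 and by the Rn18s-rs5 peak with 312 ± 17.0. Short peaks inside Gphn (261 CPM per kb), at Gm15564 near Kpna1 (220), near Myl12b (169) and inside Jarid2 (149) came next, together with starts of Khsrp (175), Hsd17b12 (148), Osbp (147) and Tomm40 (136) and a distal peak nearest Tomm20 (143). Among the 100 highest peaks by CPM, 57 were at a known gene start and 6 lay over 50 kb from a gene end. By CPM per kb these counts were 33 and 11, the latter including the peaks inside Gphn and Jarid2. Of all peaks, 11.9% were at a known start and 79.8% lay within 50 kb of a gene end. The first ranking favours long promoter peaks, with a median of 1616 bp, and the second shorter ones, with a median of 881.5 bp. Whether the handling of reads that match several places, or regions of excess signal, bears on the short leaders per kb was not tested either.

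Of the 10 strongest peaks 1 to 50 kb from a gene end, those near Krt18 and Vmp1 are given here. They were chosen after their values were seen. A peak 11454 bp from an end of Krt18, the partner of Krt8 in the filaments of simple epithelia, had 160 CPM in both libraries (160 ± 0.165). At Vmp1, an autophagy gene next to Mir21a, a peak inside the gene had 153 and 153 CPM in Vehicle 1 and Vehicle 2, and a peak 2946 bp outside it had 153 and 148 CPM.

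Each peak was next assigned to the closest end of a coding gene, up to 50 kb from its centre, which gave 70975 peaks to 16361 of 20665 coding genes. A gene with any had a median of 3 peaks and a summed 33.1 CPM, 3630 genes had a single peak and 1621 had 10 or more. A region may act on a gene other than the closest, and a gene with long empty flanks can collect more peaks.

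The loci with the highest summed level were of varied function. Sfi1 led with 1023 CPM in Vehicle 1 and 1068 in Vehicle 2 over 21 peaks, which include both of its peaks named above. Tmprss2, a transmembrane serine protease of epithelial cells, followed with 762 and 779 CPM over 34 peaks, none above 78.8 CPM. Vmp1 had 632 and 628 CPM over 18 peaks. Lrig1, a stem cell gene that restrains ErbB receptors, had 510 and 524 CPM over 23 peaks. Fos, the AP-1 partner of Jun, had 527 and 535 CPM over 14 peaks although the gene is only 3.385 kb long, and Zfp36l2 501 and 505 CPM over 11 peaks. Mical2, Mbnl2, Myh9, Cystm1, Slc39a11 and Zfp608 completed the 12 highest, between 479 and 556 CPM.

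The pattern within loci differed. At Tmprss2 the strongest peak held 10.2% of the locus, so the signal was shared by many sites, whereas at Zfp36l2 a single peak held 39.0%. With a 10 kb limit in place of 50 kb, 2 of the 12 loci stayed in the 12 highest (Sfi1 and Vmp1), and the other places included Actg1, Per2, Tgif1, Krt8, Eps8l3, Ier2, Lgals3 and Krt78.

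Lineage genes were described with 24 lists of known markers (366 distinct genes on these chromosomes) by the summed level of the assigned peaks over all members, counting 0 for a gene without an assigned peak. The median over all coding genes was 22.0 CPM. The highest list medians were 212 CPM for 26 intestinal identity factors, 185 for 20 junction and keratin genes, 143 for 22 crypt stem cell genes, 130 for 20 growth factor receptors, 122 for 16 secretory lineage and Notch genes, and 86.2 for 16 Wnt feedback and target genes. The enterocyte list had 72.4 CPM, the goblet list 70.0, housekeeping genes 59.0 and proliferation genes 44.1. Tuft genes had 22.1 CPM, and Paneth and enteroendocrine genes had 7.0 and 5.93 CPM. Immune genes had 1.87 CPM, liver and pancreas genes 3.15, striated muscle and germ cell genes 5.79, fibroblast and smooth muscle genes 9.37, stomach genes 9.44, neuron and glia genes 11.3 and endothelial genes 16.7. The order depends on the 50 kb limit. With 10 kb the median of all coding genes was 16.0 CPM, and junction and keratin genes came first with 123 CPM, followed by identity factors (93.9), stem cell genes (60.6), secretory and Notch genes (55.9), growth factor receptors (54.4), housekeeping genes (52.8), enterocyte genes (49.6), Wnt genes (41.5), goblet genes (41.4) and proliferation genes (38.8). Tuft genes then had 11.5 CPM, below the median of all coding genes, endothelial genes 5.81, neuron and glia genes 5.13 and fibroblast genes 4.14. These medians are descriptions of chosen lists, whose genes differ in length and in the space around them. The lists overlap, with 19 genes in 2 or more of them.

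**Figure D3:**
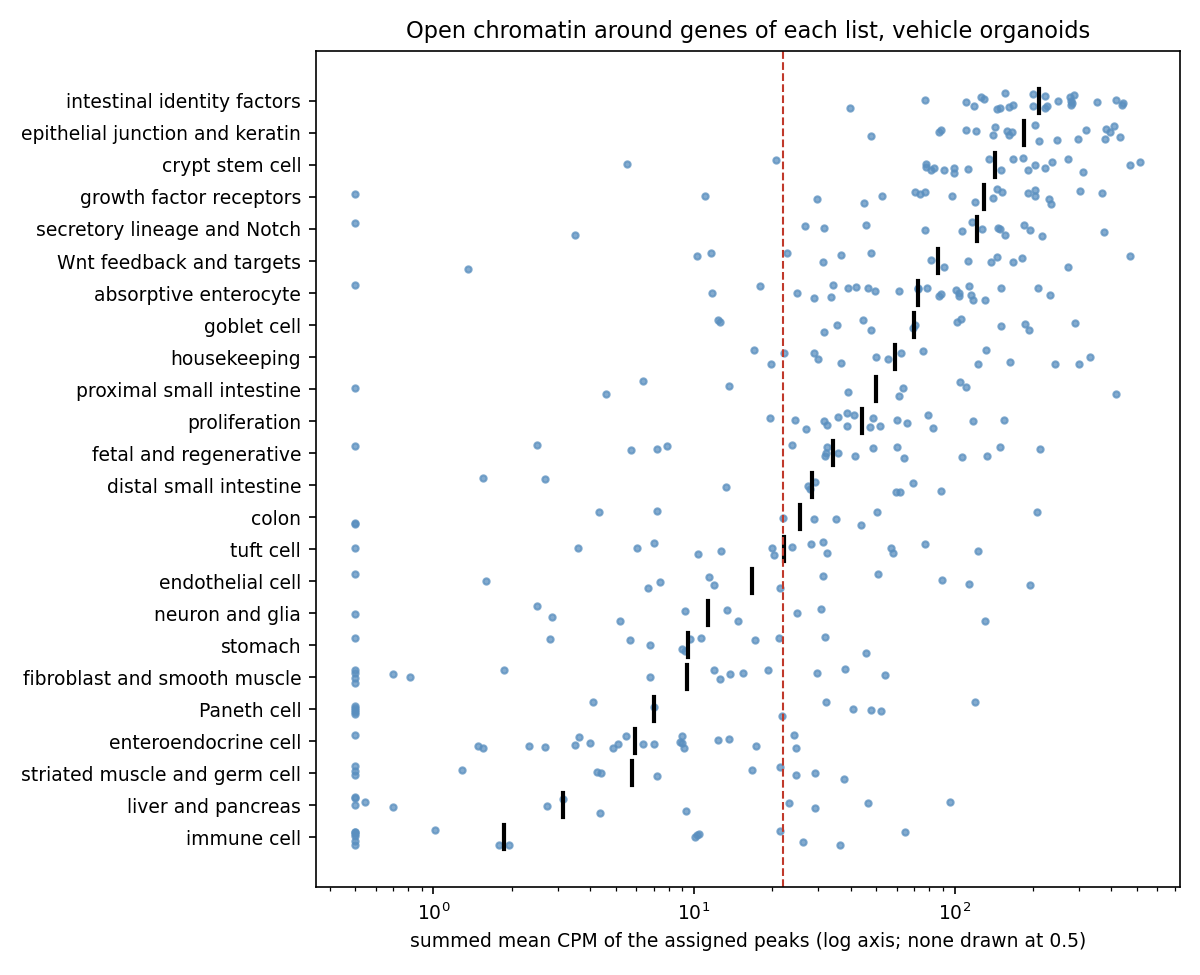
Summed mean CPM of the assigned peaks (x axis, log scale) for each gene of the marker lists (rows); black bars are list medians over all members, the dashed line is the median over all coding genes (22.0 CPM), and genes without an assigned peak are drawn at 0.5. Identity, junction and stem cell lists lie highest, and immune, liver and pancreas lists lowest.

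A second measure was the strongest peak per kb within 1 kb of either end of a gene, the gene-end peak. Of all coding genes 13851 (67.0%) had one, with a median of 18.6 CPM per kb, and percentiles below are among those genes. Peaks at shared ends of neighbouring genes were counted for both. A gene said to have no peak had neither a gene-end peak nor an assigned one, and peaks deep inside a long gene are not seen by either measure.

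The factors that hold intestinal identity were in open chromatin throughout. Of 26 genes 25 had a gene-end peak, and each gene had at least 1 assigned peak, with a median of 12.5. Elf3, an ETS factor of epithelia, had 84.8 and 85.9 CPM per kb in Vehicle 1 and Vehicle 2, and Cdx1 had 73.4 and 70.2. The Cdx2 promoter shown above had 53.3 and 53.9 CPM per kb, at the 93.1 percentile. Hnf4a had 36.5 and 35.8 CPM per kb at its strongest gene-end peak, but its strongest region lay 7541 bp from a gene end with 87.3 and 87.7 CPM, and its locus summed to 445 and 439 CPM, rank 20 of all. Hnf4g had 29.5 and 30.5 CPM per kb and a locus of 275 and 284 CPM. Gata4 was near the gene median at its gene end, with 19.5 and 19.6 CPM per kb, and rank 29 as a locus with 414 and 419 CPM over 21 peaks, the strongest of them inside the gene. Foxa1, with 69.5 and 67.0 CPM per kb, is measured at a peak nearer to an end of Ttc6.

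Genes of cell contacts and simple-epithelial filaments had high gene-end peaks as a list, with a median of 32.7 CPM per kb. Housekeeping genes had a similar median, 33.0, and the lowest contact or filament gene with such a peak had 2.04. Of 20 genes 19 had a gene-end peak, and 7 lay in the top 10% of coding genes with one. Krt8 had 114 and 111 CPM per kb, at the 99.8 percentile, in a peak beside the one over its printed window, which had 68.7 and 69.0. Claudin 3 (Cldn3), a tight junction protein, had 55.8 and 58.3 CPM per kb, and claudin 7 (Cldn7) 71.7 and 70.7 at a transcript-end peak that lies nearer to Elp5. Epcam had 31.2 and 30.3 CPM per kb and E-cadherin (Cdh1) 32.7 and 32.6, while their loci reached 429 and 431 CPM over 16 peaks and 390 and 403 CPM over 23 peaks. Krt20, a keratin of mature villus cells, was the member without a gene-end peak.

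Stem cell genes had ordinary gene-end peaks and many regions around them. Of 22 genes 21 had a gene-end peak, with a median of 18.6 CPM per kb, the same as all coding genes, while the median number of assigned peaks was 12 against 2 for all coding genes. Ephb3, a receptor that positions cells along the crypt, was the highest with 64.4 and 62.9 CPM per kb, followed by Lrig1 with 37.9 and 37.1 and Tnfrsf19 with 27.8 and 27.8. Lgr5, the R-spondin receptor, had 20.2 and 19.8 CPM per kb at the 53.7 percentile. Olfm4 had 18.6 and 18.4 at the 49.8 percentile, and its strongest region lay 14711 bp from the gene with 23.2 and 21.7 CPM. Ascl2, a Wnt-driven stem cell factor, had 20.6 and 23.0 CPM per kb at its transcript end and 45.3 and 46.3 CPM in a longer peak at its start.

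Wnt feedback genes were similar, but this list shares members with the stem cell list, among them Ascl2 and Axin2. Of 16 genes 15 had a gene-end peak, led by Myc with 34.9 and 35.8 CPM per kb, Ccnd1 with 29.2 and 25.8 and Rnf43 with 27.8 and 27.1. Rnf43, a ligase that removes Wnt receptors, was rank 14 of all loci with 471 and 473 CPM over 13 peaks. All 18 proliferation genes had a gene-end peak, but a median of only 3 assigned peaks. Pcna, the replication clamp, had 84.0 and 80.8 CPM per kb in its single peak, Mcm2 43.7 and 46.3, and Ccna2 45.1 and 39.4.

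Enterocyte genes ranged widely. Of 27 genes 24 had a gene-end peak, from 7.30 to 89.9 CPM per kb. Vil1 led with 91.4 and 88.4 CPM per kb, at the 99.3 percentile. Mttp, which loads lipid onto apolipoprotein B, had 49.5 and 49.0 at a peak nearer to Trmt10a, and the brush border protease Mep1a had 40.7 and 40.3. The fatty acid binding protein Fabp2 had 20.8 and 24.5 CPM per kb and Fabp1 7.10 and 7.51, the lowest of the list. In both, the strongest region was outside the gene, 6840 bp away with 53.0 and 60 CPM for Fabp2 and 14676 bp away with 20.0 and 19.8 CPM for Fabp1. Lct, the milk sugar enzyme lactase, had no peak.

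Genes of the secretory choice lay on both sides of the gene median at their ends. Of 16 secretory lineage and Notch genes 14 had a gene-end peak, and 8 lay above the gene median. The list median was 21.3 CPM per kb, or 19.6 at start sites only, and the lowest member had 5.65. Hes1 (40.4 and 38.5 CPM per kb), Jag1 (36.5 and 32.9) and Xbp1 (31.7 and 29.8) were highest. Hes1, the Notch target that represses Atoh1, was rank 47 of all loci with 369 and 377 CPM over 19 peaks. Atoh1 itself had 21.5 and 19.4 CPM per kb and 189 and 179 CPM in its locus.

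Goblet genes had a gene-end peak at 11 of 14. Fcgbp, a mucus protein, had 42.4 and 39.8 CPM per kb, the membrane mucin Muc13 40.6 and 41.5, and Spink4 33.5 and 37.3. Muc2, the main gel-forming mucin, was low at its gene end with 7.56 and 7.6 CPM per kb. In the Paneth list 7 of 13 genes had a gene-end peak and 5 had no peak at all, among them Ang4, Mptx2, Defa17 and Defa22. Nupr1 (29.5 and 29.4 CPM per kb), Itln1 (21.5 and 23.7) and lysozyme (Lyz1, 14.4 and 16.6) were the highest. Defensin genes have near-identical copies, so their values are uncertain.

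Enteroendocrine genes were low as a group in these cells. Of 22 genes 15 had a gene-end peak, with a median of 5.96 CPM per kb, and 1 lay above the gene median. The highest were the hormone genes Gip (21.1 and 19.8 CPM per kb, at its transcript end), Sct (18.3 and 17.0) and Ghrl (8.08 and 12.7). Chga, printed above, had 6.43 and 8.03 CPM per kb from 39 and 49 counts. Neurog3 had no gene-end peak and 2 assigned regions, the higher 3594 bp away with 2.50 and 2.09 CPM. Gcg had no peak.

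Tuft genes were mostly low at their ends. Of 16 genes 11 (68.8%) had a gene-end peak, close to the 67.0% of all coding genes. The median of those 11 was 5.65 CPM per kb, against 18.6 for coding genes with one. Above the gene median were 3: Il17rb, Ltc4s and Sh2d6. Il17rb had 47.1 and 45.6 CPM per kb at a peak nearer to the start of Chdh. Ltc4s had 27.3 and 27.3, and Sh2d6 26.7 and 27.4 at its transcript end. Pou2f3, the tuft cell master factor, had 5.98 and 5.31 CPM per kb at its gene end, while a region inside the gene 26746 bp from its ends had 47.0 and 44.4 CPM. Dclk1 had no gene-end peak and a region 15082 bp away with 17.2 and 20.4 CPM. Il25 had no peak. ATAC-seq of a mixture cannot tell a region open in few cells from one weakly open in many.

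**Figure D4:**
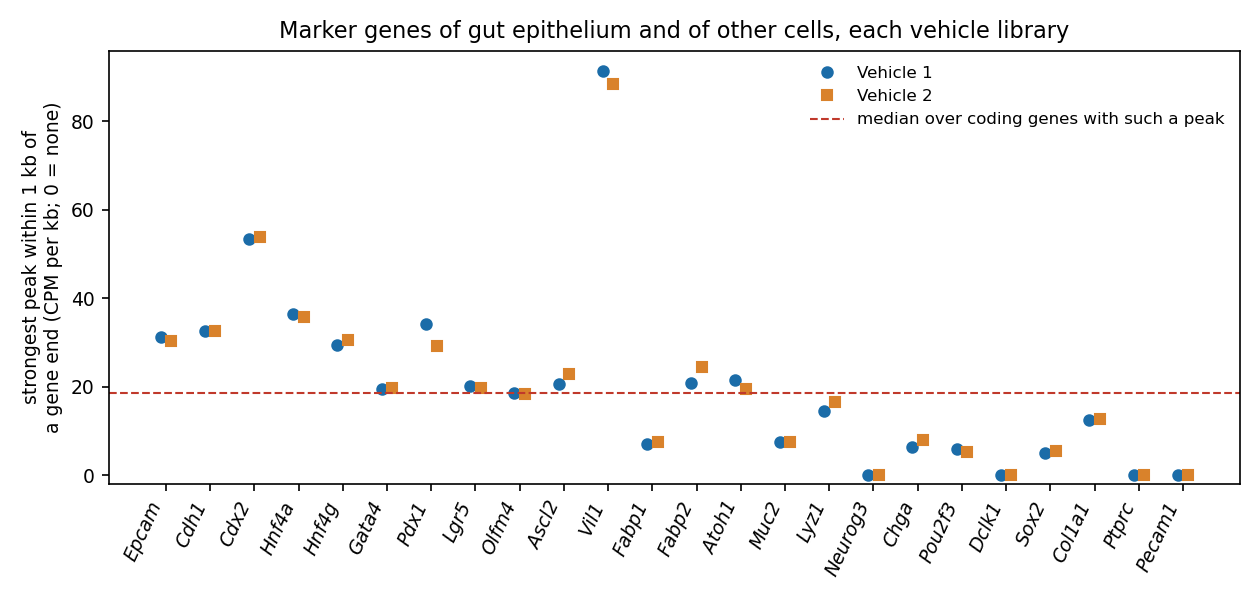
Strongest gene-end peak in CPM per kb (y axis; 0 stands for none) of 24 marker genes (x axis) in Vehicle 1 (circles) and Vehicle 2 (squares); the dashed line is the median of coding genes with such a peak. Vil1 and Cdx2 stand highest, stem cell genes lie near the line, and Neurog3, Dclk1, Ptprc and Pecam1 have none.

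Genes of the small intestine and colon included both open and low members, and stomach genes were low. Among proximal genes Pdx1, a duodenal factor, had 34.2 and 29.1 CPM per kb and Onecut2 34.2 and 33.0, and 8 of 10 genes had a gene-end peak. Among distal genes 8 of 10 had one, led by the mucin Muc3 (26.1 and 26.2 CPM per kb), Osr2 (24.8 and 24.6) and the bile acid exporter subunit Slc51b (24.5 and 23.6). Of 10 colon genes 7 had one, with Sycn (55.3 and 53.2), Aqp8 (44.9 and 49.6) and Ly6g6c (28.6 and 26.7) highest. Car1 and Hoxd11 had no peak. Of 12 stomach genes 7 had a gene-end peak, none above the gene median, and Sox2 had 5.08 and 5.43 CPM per kb.

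Fetal and regenerative genes, which mark repairing epithelium, had a gene-end peak at 17 of 18, with 5 above the gene median. Ccn1, a YAP target, had 34.1 and 30.3 CPM per kb, Anxa2 29.9 and 34.2, and Clu 30.7 and 28.2. Spp1 had no peak. Growth factor receptors had one at 19 of 20, with 9 above the gene median. Their median was 13.4 CPM per kb, below the 18.6 of coding genes, and Erbb3, Lgr4 and Fzd5 were highest. Erbb3 had 95.7 and 91.2 CPM per kb at an end shared with and nearer to Pa2g4. Lgr4, an R-spondin receptor, had 73.3 and 72.0, and the Wnt receptor Fzd5 45.7 and 46.2. Erbb4 had no peak.

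Markers of cell types that an epithelial sort should leave out had lower summed medians than all coding genes, as given above, but their gene-end peaks varied. Of all coding genes 67.0% had such a peak. Of 16 immune genes 6 had a gene-end peak and 4 had no peak at all, among them Cd3g, Cd8a and Lyz2. Ptprc, which defines leukocytes, had no gene-end peak and 3 regions that summed to 10.3 and 10.7 CPM. Itgax (34.3 and 34.7 CPM per kb, at its transcript end) and Cd68 (31.0 and 31.6) were the exceptions above the gene median. Of 16 fibroblast and smooth muscle genes 7 had a gene-end peak, none above the median. The highest was Col1a1 with 12.4 and 12.7 CPM per kb. Col1a2, Col3a1 and Lum had no peak. Tagln, with 12.4 and 11, was measured at a peak nearer to Sidt2. Of 12 endothelial genes 5 had a gene-end peak, none above 4.83 CPM per kb, and Eng had no peak. Pecam1 had none at its ends but 16 regions that summed to 113 and 114 CPM. The neuron and glia list had a gene-end peak at 7 of 10 genes, close to that share, led by Tubb3 (15.7 and 11.1 CPM per kb), and Ncam1 had no peak. The muscle and germ cell list had one at 5 of 12, led by Ckm (27.2 and 24.5 CPM per kb, at its transcript end and above the gene median), and Actc1, Sycp3 and Tnp1 had no peak. Liver and pancreas genes had one at 5 of 13, with a median of 20.6 CPM per kb among those 5, above the 18.6 of coding genes, led by Mafa (25.2 and 25.7 CPM per kb), Ttr (22.8 and 21.6) and Nkx6-1 (21.3 and 19.8), and Alb, Serpina1a and Ptf1a had no peak.

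Large families set the ends of the scale. Of 1104 olfactory receptor genes 22 (1.99%) had a gene-end peak and 970 had no assigned peak either. Of 354 vomeronasal receptor genes 6 (1.69%) had one and 300 had no assigned peak either. Of 78 ribosomal protein genes 75 (96.2%) had one, with a median of 24.4 CPM per kb. All 16 housekeeping genes had one, with a median of 33.0, and the translation factor Eef2 (101 and 99.2, nearer to Dapk3), Gapdh (62.5 and 65.4) and Actb (45.3 and 47.5) were highest. Both receptor families hold many similar copies, so their values are uncertain.

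Promoter sequence differed between windows with and without a peak. Of 20063 RefSeq windows, from 16437 genes (79.5% of coding genes), 12154 (60.6%) overlapped a peak. Their median GC content was 61.7% with 21 CpG, against 48.3% with 3 CpG in the 7909 windows without a peak. GC box letters were present in 66.3% of windows with a peak, 17.4% of those without and 47.0% of all. ETS letters were in 18.0%, 2.47% and 11.9%. TATA box letters went the other way, with 6.82%, 21.8% and 12.7%. Also rarer with a peak were AP-1 letters (3.76%, 6.13% and 4.70%), CDX letters (2.39%, 5.58% and 3.65%) and GATA letters (1.75%, 3.87% and 2.59%). CCAAT letters were nearly equal, with 38.1%, 38.2% and 38.1%, and HNF4 letters were in 0.485%, 0.430% and 0.464%. NRF1 letters were in 2.07%, 0.228% and 1.34%, and CRE letters in 3.29%, 0.784% and 2.30%.

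Among windows with a peak, CCAAT letters went with higher signal. With these windows divided into 4 equal classes by CPM per kb, they were in 26.9% of the lowest class, in 30.4% and 38.3% of the next and in 56.5% of the highest. ETS letters were in 8.95%, 19.6%, 22.9% and 20.5% of the 4 classes from lowest to highest. Median GC content was 63.3% in the lowest and 60.3% in the highest class. Of the letters searched for gut factors, HNF4 letters were in 0.494% of the lowest and 0.526% of the highest class, and GATA letters in 1.84% and 1.78%. CDX letters were in 1.94%, 2.30%, 1.91% and 3.42% of the 4 classes from lowest to highest. Short motifs match by chance at a rate that depends on base composition, and the windows are not independent of each other.

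Chromatin at miRNA genes was described in the same way. MicroRNAs silence messages that pair with their seed, bases 2 to 8. Of 919 RefSeq hairpins on these chromosomes 651 (70.8%) had a peak within 10 kb, with a median summed level of 10.1 CPM over all hairpins. A list of 15 hairpins known from gut or other epithelium all had one, with a median of 151 CPM. Of 13 miRNAs known from other tissues 6 had one, with a median of 0; 2 of these, Mir150 and Mir1a-1, have no hairpin entry and were placed by a mature arm. Mature sequences of the miR-200 family, of miR-192, miR-215 and miR-194 and of miR-21a are given with their seed in capitals. The choice is not a ranking by level, since Mir802 had a higher level than Mir215 and is not printed.
miR-200b-3p: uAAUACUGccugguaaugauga
miR-200c-3p: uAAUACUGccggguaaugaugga
miR-429-3p: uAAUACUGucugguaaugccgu
miR-200a-3p: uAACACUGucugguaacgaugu
miR-141-3p: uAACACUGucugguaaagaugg
miR-192-5p: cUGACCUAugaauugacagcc
miR-215-5p: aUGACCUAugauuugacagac
miR-194-5p: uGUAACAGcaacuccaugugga
miR-21a-5p: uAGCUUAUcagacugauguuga

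The miR-200 family maintains the epithelial state by silencing Zeb factors, and it comprises 2 seed groups that occur side by side in both of its clusters. miR-200b, miR-200c and miR-429 share the seed AAUACUG, and miR-200a and miR-141 share AACACUG. The cluster of Mir200b, Mir200a and Mir429 on chromosome 4 had 260 CPM in Vehicle 1 and 260 in Vehicle 2 around Mir200b, with its strongest peak at 118 and 117 CPM. The cluster of Mir200c and Mir141 on chromosome 6 had 156 and 145 CPM. Hairpins of a cluster share their peaks and are not separate observations.

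miR-192 and miR-215 share the seed UGACCUA and are known from gut and liver, and each lies beside a copy of miR-194, whose seed is GUAACAG. The pair Mir192 and Mir194-2 on chromosome 19 had 167 and 170 CPM, and the pair Mir215 and Mir194-1 on chromosome 1 had 87.7 and 90.3 CPM. Mir21a, a widely expressed growth-related miRNA, had the highest summed level of all 919 hairpins, 510 and 504 CPM over 7 peaks around the end of Vmp1. Mir802 had 130 and 144 CPM, Mir203 50.5 and 48.2, Mir31 47.2 and 50.2, Mir375 40.7 and 37.8, and Mir205, of stratified epithelium, 15.6 and 17.8.

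The miRNAs of other tissues were mostly lower. The exception was Mir150, of lymphocytes, with 155.9 and 155.1 CPM over 3 peaks, as high as the epithelial median. Mir126a, of endothelium, had 61.5 and 56.8 CPM, and Mir142, of blood cells, 12.5 and 12.2. Copies of Mir9, of neurons, had 6.63 to 11.5 CPM. Mir206, Mir133b and Mir1a-1 of muscle, Mir128-1 of brain, Mir216a and Mir217 of pancreas and Mir155 of immune cells had no peak within 10 kb. Peaks near a hairpin may belong to another gene, and no RNA was measured.

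**Figure D5:**
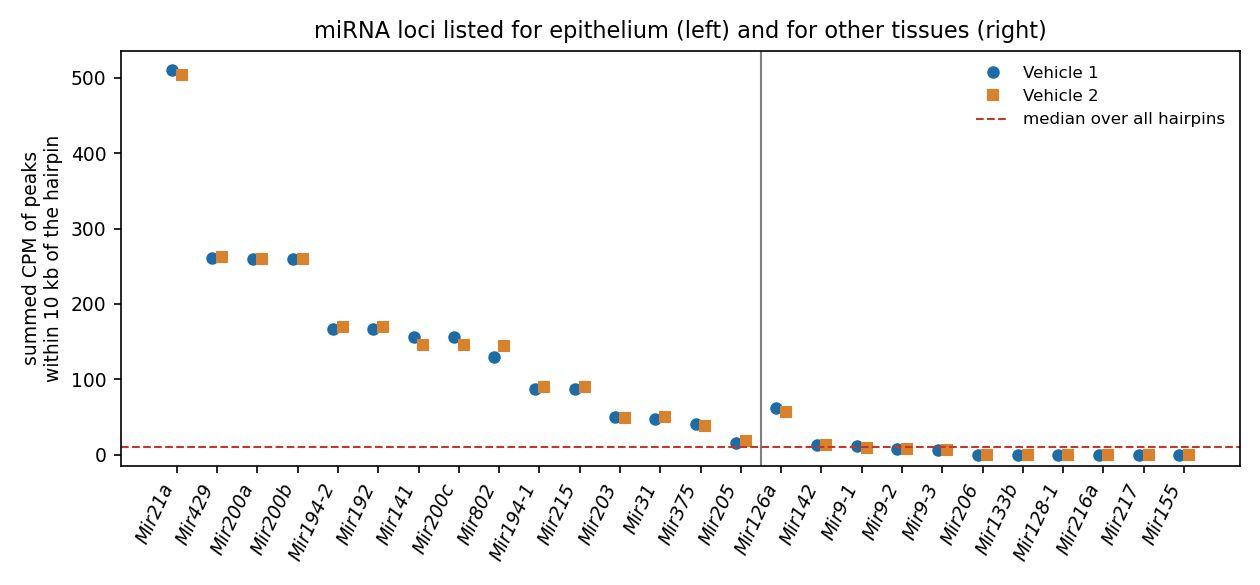
Summed CPM of the peaks within 10 kb (y axis) for each listed miRNA with a hairpin entry (x axis) in Vehicle 1 (circles) and Vehicle 2 (squares), epithelial miRNAs left of the line and those of other tissues right of it; the dashed line is the median of all hairpins (10.1 CPM). Mir21a reaches 510 CPM, and 6 hairpins of other tissues are at 0.

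Weak peaks formed a small tail. A peak with a mean under 1 CPM counts as weak here, which took in 6608 peaks (7.43%). They held 0.463% of the counts of Vehicle 1 and 0.476% of those of Vehicle 2, with a median of 9 counts in each. They were short, with a median of 225 bp, and 8.84% lay at a gene end against 18.6% of the other peaks. At known gene starts the shares were 3.89% and 12.6%. The share inside a gene was 56.1% in both classes, and the share over 50 kb from a gene end was 23.9% against 19.9%.

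Depth limits what the weak peaks can show. Their median absolute log2 ratio between the libraries was 0.54, against 0.15 for the others, and 22.7% of them differed 2-fold or more. In Vehicle 1 378 peaks and in Vehicle 2 364 peaks had at most 3 counts, and 71 had so few in both. A count of 0 allows up to 0.234 CPM in Vehicle 1 and 0.233 CPM in Vehicle 2 (3 counts).

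The 6 weakest peaks assigned to a gene had at most 2 counts in either library. A 184 bp peak inside Wnk2 had 0 counts in both libraries, which allows up to 0.143 CPM over the pair (95% Poisson interval, counting error only). Peaks at ends of Mgat3 and Hcn4 had 0 and 2 counts, peaks near Map3k7cl and at Dlgap4 1 and 1, and a peak inside Afdn, nearest Tcte2, 2 and 0, each with an interval of 0.00942 to 0.281 CPM. These 6 regions belong to 1 consensus set made for all libraries, and the sources used here do not say in which libraries each was found. Where a gene had no peak, no consensus region lay within 1 kb of its ends, and its chromatin there was not measured.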

How the data were processed

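The authors deposited a single table of raw counts, with a row per consensus peak and a column for each of 6 libraries. With featureCounts 1.6.3, per the file headers, pairs were counted by the 5′ end of each read, without strand, and a pair over several peaks was added to every one of them. Trim Galore, BWA, Picard, SAMtools and MACS2 were used and the build was mm10, per the submitters' processing notes. The sources used here do not give the aligner's settings, excluded regions, any shift for the transposase's offset or how the consensus was built.

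The 2 vehicle columns were matched to their libraries by name, and CPM were taken over each column's total with all chromosomes, then divided by peak length in kb where stated. A low CPM thus rests on few reads: at 12819432 and 12900551 counts a library, 3 counts are 0.234 and 0.233 CPM. Regions were named with the RefSeq gene table (GRCm38.p6, which mm10 follows). A gene-end peak has any base within 1 kb of either end of a protein-coding gene, and a peak was assigned to the coding gene with an end nearest to its centre within 50 kb. The gene table has no strand, so starts were told from ends with the RefSeq promoter table, which covers 79.5% of coding genes. Exons, introns and UTRs were not separated. No treatment was compared, so there is no differential test and no p-value. Values are given for each library, with mean ± SD (n = 2) where useful. edgeR (4.0.16) and DESeq2 (1.42.0) gave the TMM and median-of-ratios factors over all 6 libraries, treated ones included, tried as alternatives. The scripts ran in Python 3.11.15 and R 4.3.3 and were tested on simulated counts and coordinates.

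The members and lists were chosen with earlier results of these data known, the miRNA list without miRNA values in view. The text names the 12 highest peaks by CPM and by CPM per kb, the 12 highest loci, in each list the 3 genes with the highest gene-end peak and up to 4 members without any peak, the 6 weakest assigned peaks, the 4 most uneven peaks of 1 CPM or more and 25 marker genes, of which a few items are not reported here. Other names were chosen after their values were seen. The lists' 3 unmatched names (Pla2g2a, Gm15284 and Gif) and 5 genes on chromosome X were left out.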

Additional observations from a re-analysis of the deposited data

Results flagged for a closer look

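Counts on the sex chromosomes lay outside the autosomal description. Chromosome X held 184555 counts in Vehicle 1 and 185775 in Vehicle 2 over 1829 peaks, 1.44% of each library and 10.7 peaks per Mb. Chromosome Y held 3089 and 3146 counts over 29 peaks.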

How the results depend on the processing

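No paired analysis was possible because the values come from 1 group and from no test. The share of counts in gene-end peaks, 34.5% ± 0.36, was 38.9% with a 2 kb limit, 31.9% with 500 bp and 26.5% at known starts only. There were 1074 weak peaks under 0.5 CPM and 21411 under 2 CPM, against 6608. The median gene-end peak over all list genes, 18.5 CPM per kb, was 19.5 with 2 kb, 18.9 with 500 bp and 19.9 at start sites only, and 21.0 CPM without division by length. Of the 12 highest loci, 2 stayed with a 10 kb limit. The chi-square per degree of freedom was 1.05 in place of 1.10 with at least 10 counts in both libraries. With either library left out, 10974 to 10999 peaks held 50% of the counts, the gene-end share was 34.2% to 34.7%, 6713 to 7005 peaks were weak, the list median was 18.4 to 18.6 CPM per kb, and 12 of the 12 highest loci stayed. TMM and median-of-ratios scaling, over all 6 libraries, each gave 7136 weak peaks. Start-only values and the 10 kb sums of lists were added after seeing the data. At start sites only, list medians per kb moved over 1.5-fold for liver and pancreas (6.12 in place of 20.6), proximal (7.36 in place of 20.0), immune (31.3 in place of 16.3, 1 gene), fibroblast (4.33 in place of 8.43), endothelial (2.81 in place of 4.27) and neuron and glia genes (4.37 in place of 8.49). With a 2 kb limit they did so for distal genes (23.4 in place of 12.9) and liver and pancreas genes (8.52). Growth factor receptor genes did so too, with 20.7 in place of 13.4. With 500 bp they did so for colon genes (10.7 in place of 17.4) and liver and pancreas genes (13.3 in place of 20.6). The cause was not tested. Weak peaks are limited by depth.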
